A study of Mus musculus with 55 samples.

Results

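The expression of 10 genes that mark the pyramidal cells of hippocampal fields CA3 and CA2 was followed in RNA-seq of the ventral dentate gyrus of male mice. They were chosen by name as markers of these fields: Cpne4, Iyd, Nectin3, Coch and Bok as CA3 genes, and Amigo2, Rgs14, Pcp4, Map3k15 and Cacng5 as CA2 genes. These 10 genes were among 45318 gene identifiers in the deposited count tables, and all 10 passed the filter on low counts that left 18283 genes to test.

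The tissue came from 54 C57BL/6J males that were housed from postnatal day 21 for 8 weeks either in standard housing (SH) or in an enriched environment (EE). Mice of each housing were then left undefeated (control) or exposed to 10 days of chronic social defeat stress (CSDS), in which an aggressive male repeatedly attacks the test mouse. Defeated mice were ranked by a social interaction test as resilient (RES) or susceptible (SUS), and their tissue was collected at postnatal day 90. The groups held 10 SH control, 7 SH RES, 10 SH SUS, 9 EE control, 9 EE RES and 9 EE SUS mice, each sample being RNA from the punched dentate gyrus of 1 mouse. These numbers are those of the labels, and the methods of the study describe a smaller range of RNA samples per group without naming the mice. Summed gene counts per mouse ran from 16760009 to 24426804, except for EE control mouse 9, which had been sequenced in 2 runs that were added to 45872357. Because RES and SUS are assigned after defeat, they are outcomes of the stress and not treatments.

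In the hippocampal circuit, dentate granule cells send mossy fibres to the pyramidal cells of CA3, which excite one another and project to CA1. CA2 is a small field between CA3 and CA1 whose cells take part in social memory and carry a characteristic set of proteins that restrain synaptic plasticity. The tip of CA3 reaches into the mouth of the dentate gyrus, so a punch of this region can hold CA3 tissue as well as granule cells.

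The sampled tissue carried the markers of its label. All 9 listed dentate granule cell genes were above 0 in every mouse, the most abundant being Prox1, a transcription factor of granule cells, at 141 ± 25.7 CPM (SD, n = 54), where CPM is the read count scaled to the TMM-adjusted library size. Genes of the CA fields were present as well, with Neurod6, a transcription factor of pyramidal neurons, at 129 ± 28.2 CPM. The CA2 label had weaker grounds: Avpr1b, the vasopressin receptor that defines CA2 cells in the hippocampus, was at 0 in 33 of 54 mice, had a mean of 0.0255 CPM and did not pass the filter, while the other 9 further CA2 genes were above 0 in every mouse. A set of 6 mice stood apart by Ttr, the transthyretin of choroid plexus, above 100 CPM: SH control 3 at 872, EE SUS 3 at 474, SH SUS 3 at 315, EE control 9 at 292, EE RES 3 at 264 and SH SUS 7 at 144 CPM, against a median of 0.305 over all mice. For part of the results, values without these 6 mice are given as well.

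Promoter sequences are shown for Cpne4, Iyd, Nectin3 and Bok, because these 4 CA3 genes rose and fell together over the mice. Each is the 250 bases before a start site listed by RefSeq on GRCm38.p6, read 5′ to 3′ on the strand of the gene, with every E-box (CANNTG, a palindrome that reads alike on both strands) in capitals; the windows are chr9:104569405-104569654, plus strand, chr10:3540024-3540273, plus strand, chr16:46496968-46497217, minus strand, and chr1:93685325-93685574, plus strand.
Cpne4: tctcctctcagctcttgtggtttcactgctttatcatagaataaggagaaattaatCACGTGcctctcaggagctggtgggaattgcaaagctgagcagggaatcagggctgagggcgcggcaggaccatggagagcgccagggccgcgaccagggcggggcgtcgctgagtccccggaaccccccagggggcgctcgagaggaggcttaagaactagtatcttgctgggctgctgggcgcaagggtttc
Iyd: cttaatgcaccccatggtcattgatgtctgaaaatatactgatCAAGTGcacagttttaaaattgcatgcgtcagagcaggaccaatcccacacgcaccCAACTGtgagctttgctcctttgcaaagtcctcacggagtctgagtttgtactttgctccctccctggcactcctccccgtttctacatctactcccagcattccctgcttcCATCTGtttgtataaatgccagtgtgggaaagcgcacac
Nectin3: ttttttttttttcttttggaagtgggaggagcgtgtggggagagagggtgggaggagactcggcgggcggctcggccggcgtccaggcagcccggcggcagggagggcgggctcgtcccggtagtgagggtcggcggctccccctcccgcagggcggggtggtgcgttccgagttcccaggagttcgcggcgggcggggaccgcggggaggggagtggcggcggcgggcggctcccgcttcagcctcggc
Bok: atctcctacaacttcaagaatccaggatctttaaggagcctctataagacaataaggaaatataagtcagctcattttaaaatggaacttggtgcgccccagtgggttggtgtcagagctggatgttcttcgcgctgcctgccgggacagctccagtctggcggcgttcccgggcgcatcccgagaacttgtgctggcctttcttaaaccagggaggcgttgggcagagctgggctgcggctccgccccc
An E-box occurred 1 time in the Cpne4 window and 3 times in that of Iyd, and not in the Nectin3 and Bok windows. Of 8 members with a listed promoter, 3 held an E-box (Cpne4, Iyd and Cacng5), whereas 66.2% of 32851 promoters did. RefSeq lists 2 starts each for Cpne4 and Cacng5, and the window nearest the GENCODE gene start was taken. The Cpne4 and Nectin3 windows lie inside the GENCODE gene, and that of Iyd reaches into it. The counts hold for these windows, and the other listed ones were not searched for the members. The core of the cyclic AMP response element, TGACG, searched on both strands, was in 1 of the 8 (Iyd) and in 17.8% of all promoters. The full element TGACGTCA, which contains that core, the MEF2 site and the glucocorticoid response element were in 0 of the 8, and in 1.55%, 3.20% and 0.387% of all promoters. Nectin3 and Bok, the pair that moved together most closely, thus shared none of these letter strings in their windows, which differed in base composition (73.2% and 55.2% G or C).

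Among the CA3 genes, Cpne4 encodes a copine, a calcium-dependent membrane-binding protein, and lies at chr9:104547286-105034544 (ENSMUSG00000032564; GRCm38, GENCODE M21). Its level was 142 ± 14.3 CPM (SD, n = 54), with the smallest relative spread of the 10 genes (SD over mean). Nectin3, an adhesion protein of cell junctions and mossy fibre synapses at chr16:46387706-46498525 (ENSMUSG00000022656), stood at 97.2 ± 17.1 CPM. Bok, a member of the BCL2 family of apoptosis regulators at chr1:93685660-93695764 (ENSMUSG00000026278), stood at 62.4 ± 11.6 CPM. Coch encodes cochlin, a secreted matrix protein best known from the inner ear, at chr12:51593341-51605771 (ENSMUSG00000020953), and had 6.85 ± 2.39 CPM with a 7.32-fold range between EE control 8 and SH SUS 6. Iyd encodes iodotyrosine deiodinase, which salvages iodide in the thyroid, at chr10:3540240-3554877 (ENSMUSG00000019762), and had 4.66 ± 0.996 CPM.

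Of the CA2 genes, Rgs14 encodes a scaffold and G protein regulator that limits long-term potentiation in CA2 and lies at chr13:55369732-55384687 (ENSMUSG00000052087). Its level was 69.5 ± 8.49 CPM. Amigo2, an adhesion protein with leucine-rich repeats at chr15:97244125-97247287 (ENSMUSG00000048218), had 24.4 ± 4.47 CPM. Pcp4 encodes a small calmodulin-binding peptide at chr16:96467606-96525793 (ENSMUSG00000090223) and had 17.7 ± 3.01 CPM. Cacng5, an auxiliary subunit of AMPA-type glutamate receptors at chr11:107874605-107915055 (ENSMUSG00000040373), had 6.55 ± 2.03 CPM. Map3k15, a kinase of the MAP kinase cascade at chrX:159988433-160123351 (ENSMUSG00000031303), had 1.41 ± 0.349 CPM, which came from 16 to 105 counts per mouse. Pcp4 overlaps Igsf5 on the same strand, and Map3k15 overlaps a pseudogene on its strand. Reads that cannot be assigned to 1 gene were not counted, so these levels are less certain and can be too low.

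Compared per length of their exons, Bok (33.9 CPM per kb) and Cpne4 (25.9) had the highest levels of the members. Pcp4 (17.2), Rgs14 (16.4), Amigo2 (7.73) and Nectin3 (7.62) followed, and Iyd (2.87), Coch (2.28), Cacng5 (1.71) and Map3k15 (0.324) were lowest. In the plot of CPM by group the ranges of any 2 groups overlapped for every gene, except for Nectin3 between EE SUS (lowest 93.5 CPM) and SH RES (highest 93.0) and for Rgs14 between SH RES (lowest 72.1) and EE RES (highest 72.0).

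**Figure D1:**
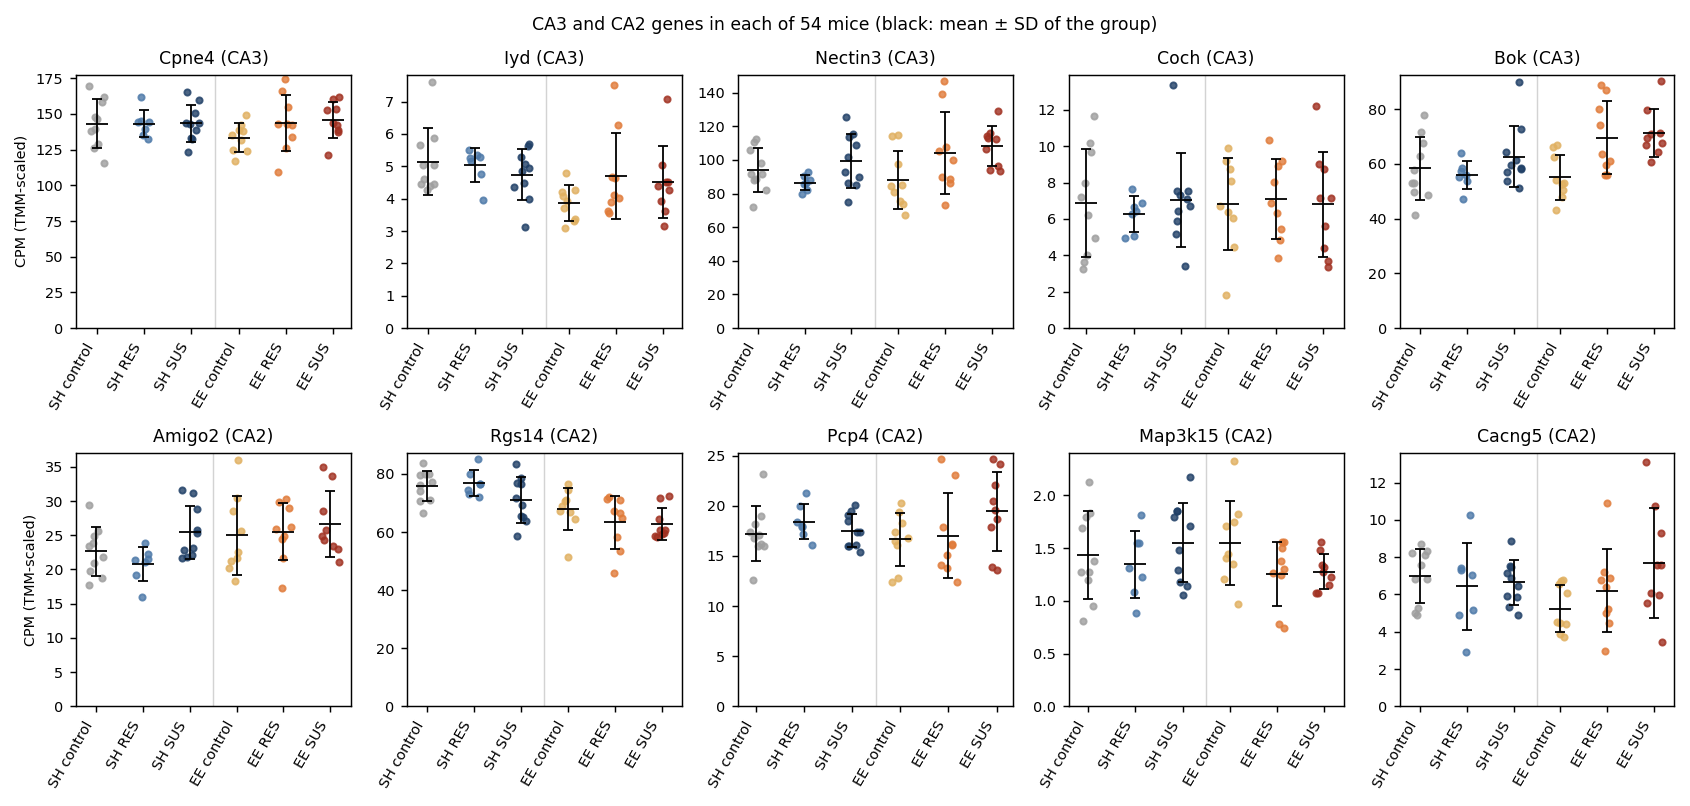
CPM of each of the 10 genes (vertical axes, starting at 0) in the 6 groups (horizontal axes); points are mice and black bars are the mean ± SD. Rgs14 sits lower in the 3 EE groups than in the 3 SH groups, and Bok is highest in EE RES and EE SUS.

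Whether housing, defeat or the response to defeat changed these genes was asked by a fit across all genes with edgeR's quasi-likelihood test and Benjamini-Hochberg adjustment over the 18283 genes. Rgs14 fell in EE, and it was the only member past an adjusted p of 0.05 in any of 15 comparisons. In SH mice, Rgs14 ran from 66.7 to 83.8 CPM (median 76.6) in controls, from 72.1 to 85.3 (76.5) in RES and from 58.5 to 83.4 (70.5) in SUS. In EE mice it ran from 51.5 to 76.6 (69.1) in controls, from 45.8 to 72.0 (66.4) in RES and from 58.3 to 72.5 (60.6) in SUS. All groups overlapped but SH RES and EE RES, and 26 of 27 EE mice were below the SH median, 5 were below the lowest SH mouse, and 10 of 27 SH mice were above the highest EE mouse. The mean was 74.3 ± 6.55 CPM in SH (SD, n = 27) and 64.8 ± 7.52 in EE (n = 27). On the log2 scale the difference, averaged over control, RES and SUS, was -0.20 (SE 0.04, adjusted p = 0.00222). During housing the mice shared cages, in larger groups in EE, and the labels name no cage. Cage mates were thus treated as independent, and this p-value does not measure the spread between cages. In this comparison 1 of the 10 members was called, against 2.42% of all genes, and 4 of 10 (Amigo2, Rgs14, Bok and Iyd) had an unadjusted p under 0.05, against 17.6%. In bulk tissue, fewer cells of a type and less RNA per cell cannot be told apart.

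Rgs14 was lower in EE at each level of the defeat factor, by -0.16 (SE 0.07, adjusted p = 0.901) in control mice, by -0.28 (SE 0.07, adjusted p = 0.0620) in RES mice and by -0.17 (SE 0.07, adjusted p = 0.542) in SUS mice in edgeR. None of the 3 passed the threshold alone with edgeR. The order of the group means was SH RES (76.9 CPM), SH control (75.9), SH SUS (70.9), EE control (68.0), EE RES (63.4) and EE SUS (62.9), and each neighbouring pair differed by less than the SD of either group. Between defeated and control mice Rgs14 differed by -0.07 (SE 0.04, adjusted p = 0.987), and between SUS and RES mice by -0.06 (SE 0.05, adjusted p = 0.999). The test over all 6 groups called Rgs14 (adjusted p = 0.0362) and no other member, 1 of 10 against 0.35% of all genes, while 5 of 10 (also Amigo2, Bok, Iyd and Nectin3) had an unadjusted p under 0.05, against 11.1%. That call was lost without the 6 mice high in Ttr (adjusted p = 0.0506), with the replicate number as a block (0.0517), with the granule cell score as a covariate (0.0671) and without single mice in 15 of 54 cases (up to 0.0677). In contrast, the housing difference was -0.21 (adjusted p = 0.00331) without the mice high in Ttr.

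Other cell markers moved with housing beside Rgs14, in a comparison that called 2.42% of all genes and had 17.6% at an unadjusted p under 0.05 in edgeR. Among 9 dentate granule cell genes 2 fell in EE, Dsp by 0.30 and Tdo2 by 0.28 on the log2 scale, 4 of 9 had an unadjusted p under 0.05, and the median over the list was -0.12, against 0.00 over all genes. Of 5 oligodendrocyte genes 2 rose in EE, Mbp, the myelin basic protein, by 0.25 among them, all 5 were higher with an unadjusted p under 0.05 in edgeR, and the median was 0.27. Of 4 endothelial genes Flt1 rose by 0.23, and all 4 were higher with an unadjusted p under 0.05. Summed over the granule list, the level was 878 ± 110 CPM in SH control and 862 ± 169 in EE control, 912 ± 41.3 in SH RES and 755 ± 126 in EE RES, and 834 ± 139 in SH SUS and 794 ± 118 in EE SUS. The oligodendrocyte list, of which Mbp is the most abundant gene, summed to 1271 ± 244, 1059 ± 93.6 and 1210 ± 368 CPM in SH control, RES and SUS, and to 1351 ± 384, 1390 ± 282 and 1555 ± 312 in the EE groups. With the granule cell score (the mean z-score of log2 CPM over the 9 genes) as a covariate, added after seeing the data, the Rgs14 difference was -0.16 (SE 0.03, adjusted p = 0.00290), against -0.20 (SE 0.04) without it. The score itself followed Rgs14 over the mice (r = 0.713), and the part of the oligodendrocyte and endothelial markers in the difference was not tested.

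**Figure D2:**
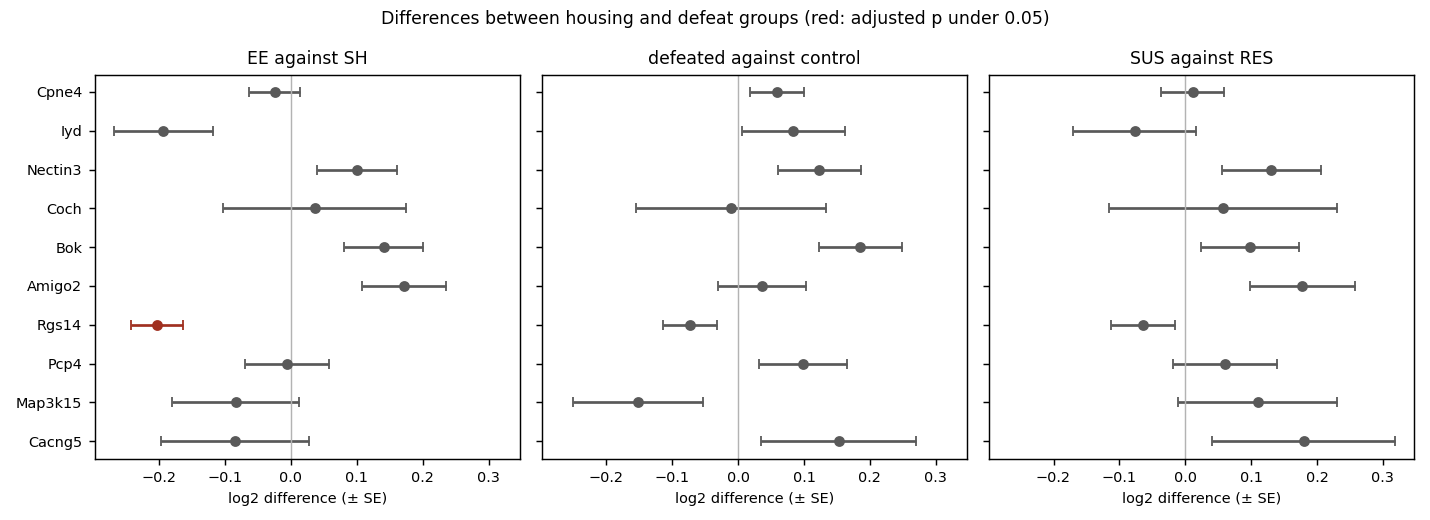
Log2 differences (horizontal axes, edgeR) with their SE for each gene (vertical axis) between EE and SH, defeated and control, and SUS and RES mice, each averaged over the other factor. Rgs14 at -0.20 between EE and SH is the only point in red, which marks an adjusted p under 0.05.

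Bok had the next smallest p in the test over all 6 groups, and its values were highest in defeated EE mice. In SH mice, Bok ran from 41.2 to 77.9 CPM (median 55.5) in controls, from 47.2 to 63.8 (55.9) in RES and from 51.3 to 90.1 (59.1) in SUS. In EE mice it ran from 43.1 to 66.8 (52.9) in controls, from 55.9 to 89.0 (63.7) in RES and from 60.6 to 90.2 (69.6) in SUS. EE SUS and EE control thus overlapped only between 60.6 and 66.8 CPM. The differences from EE control were 0.37 in EE SUS (SE 0.10, adjusted p = 0.249) and 0.33 in EE RES (SE 0.10, adjusted p = 0.538), and that between defeated and control mice of both housings was 0.19 (SE 0.06, adjusted p = 0.823). The defeat effect was larger in EE than in SH by 0.33 (SE 0.13, adjusted p = 0.756). None of these passed the threshold with edgeR, limma or DESeq2, while the test over all 6 groups gave Bok an adjusted p of 0.132 with edgeR and passed with DESeq2. Thalamus markers moved in the same comparisons, with 6 of 6 genes higher at an unadjusted p under 0.05 in EE SUS (median 1.27, 7.9% of all genes) and 3 of 6 in EE RES (median 0.64, 7.91%), and Bok followed the thalamus score over the mice (r = 0.402, rho 0.397, 0.240 within SH and 0.491 within EE). With thalamus and choroid plexus scores as covariates the Bok differences were 0.25 (SE 0.10) in EE SUS and 0.29 (SE 0.09) in EE RES.

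Nectin3 varied in the same direction as Bok. In SH mice, it ran from 72.3 to 112.6 CPM (median 91.4) in controls, from 80.0 to 93.0 (86.2) in RES and from 74.9 to 125.5 (97.5) in SUS. In EE mice it ran from 67.1 to 115.1 (84.6) in controls, from 73.1 to 146.8 (99.9) in RES and from 93.5 to 129.4 (112.3) in SUS. All groups overlapped but EE SUS and SH RES, a pair that was not tested. The largest difference from a control group was 0.30 in EE SUS (SE 0.10, adjusted p = 0.445), followed by 0.24 in EE RES (SE 0.10, adjusted p = 0.610). Beside these, 8 further CA3 genes (Grik4, Hs3st4, Socs2, Cdh24, Plagl1, Mndal, Spock1 and Slit2) were followed. Of these, 7 of 8 were higher in EE SUS than in EE control, with a median of 0.19, against -0.01 over all genes. In edgeR, 1 of them had an unadjusted p under 0.05, near the 7.9% of all genes. All 8 were higher in EE RES than in SH RES, 5 of them at an unadjusted p under 0.05 (median 0.32, 16% of all genes). All 8 were also higher in SH SUS than in SH RES, 3 of them at that level (median 0.20, 4.88%). None passed the adjusted threshold in these comparisons. Nectin3 itself was higher in EE RES than in SH RES by 0.27 (SE 0.11, adjusted p = 0.211 in edgeR).

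Iyd was lowest in EE control mice. Its values ran from 3.09 to 4.80 CPM (median 3.92) there and from 4.26 to 7.61 (4.83) in SH control, so that the groups overlapped between 4.26 and 4.80 CPM. The difference was -0.40 (SE 0.13, adjusted p = 0.808), and over all mice EE was lower than SH by -0.19 (SE 0.07, adjusted p = 0.148). Without the 6 mice high in Ttr the latter was -0.25 (SE 0.07) and passed the threshold at an adjusted p of 0.0493. Other Iyd groups ran from 3.96 to 5.52 (5.25) in SH RES, from 3.13 to 5.69 (4.90) in SH SUS, from 3.56 to 7.50 (4.11) in EE RES and from 3.16 to 7.07 (4.39) in EE SUS.

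Amigo2 was higher in EE than in SH by 0.17 (SE 0.06, adjusted p = 0.136), with 25.7 ± 4.80 against 23.2 ± 3.81 CPM (SD, n = 27 each). Its lowest group was SH RES, from 16.0 to 23.8 CPM (median 21.3), and the highest median was that of EE RES. SH SUS, from 21.6 to 31.7 (24.2), was above SH RES by 0.29 (SE 0.12, adjusted p = 0.934), and EE RES, from 17.3 to 30.4 (25.9), was above SH RES by 0.30 (SE 0.12, adjusted p = 0.193). None of these differences passed the threshold. Other markers moved in the last 2 comparisons at an unadjusted p under 0.05 in edgeR. In SH SUS, 3 of 8 further CA3 genes were higher, and 3 of 5 mossy cell and 3 of 9 granule cell genes lower (4.88% of all genes). In EE RES, 5 of 8 further CA3 and 4 of 5 oligodendrocyte genes were higher, and 5 of 9 granule cell genes lower (16%). The part of these cell types in the Amigo2 differences was not tested.

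Cacng5 spread most within EE SUS mice, from 3.43 to 13.1 CPM (median 7.57), which enclosed the whole range of EE control, from 3.71 to 6.79 (4.53). The difference was 0.56 (SE 0.19, adjusted p = 0.427). Markers of thalamus moved with it: all 6 listed genes were higher in EE SUS than in EE control at an unadjusted p under 0.05 in edgeR, against 7.9% of all genes, none past the adjusted threshold, and their sum was 129 ± 76.1 CPM (SD, n = 9) against 46.1 ± 20.1 (n = 9), with Prkcd, a protein kinase C, the most abundant and 0 of the 6 genes at 0 in any mouse. With thalamus and choroid plexus scores as covariates the Cacng5 difference was -0.02 (SE 0.14). Pcp4 behaved alike between these groups, with 13.6 to 24.6 CPM (median 19.6) in EE SUS, 12.4 to 20.3 (16.8) in EE control, a difference of 0.23 (SE 0.11, adjusted p = 0.617), and 0.03 (SE 0.09) with those covariates.

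For Cpne4, Coch and Map3k15 no comparison of edgeR reached an unadjusted p of 0.05. With limma, Map3k15 did so in EE RES against EE control. Between EE and SH the 3 genes differed by -0.02 (SE 0.04), 0.04 (SE 0.14) and -0.08 (SE 0.10), and between defeated and control mice by 0.06 (SE 0.04), -0.01 (SE 0.14) and -0.15 (SE 0.10). The SE of Coch and Map3k15 was larger than that of Cpne4, and so was their relative spread over the mice, with a coefficient of variation of 34.9% for Coch and 24.8% for Map3k15. Group medians of Cpne4 lay between 135 CPM in EE control and 145 in SH RES, those of Coch between 6.45 in SH RES and 7.13 in EE SUS, and those of Map3k15 between 1.28 in EE SUS and 1.59 in SH SUS.

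Read by comparison, the members called by edgeR were 0 of 10 in all comparisons but the test over 6 groups and EE against SH. Defeated against control mice had 1 of 10 members (Bok) at an unadjusted p under 0.05, with limma 1 and with DESeq2 2, against 4.81% of all genes, of which 0.0438% passed the adjusted threshold. SUS against RES had 1 of 10 (Amigo2) with each of the 3 tools, against 3.67% and 0% of all genes, unadjusted and adjusted. The difference of the defeat effect between housings had 3 of 10 (Cacng5, Bok and Nectin3) with edgeR, 2 with limma and 4 with DESeq2, against 6.47% and 0%, and that of SUS against RES between housings had 0 of 10 with each tool, against 4.84% and 0%.

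Within SH, SUS against control and RES against control had 0 of 10 members at an unadjusted p under 0.05 with edgeR, limma and DESeq2, against 2.78% and 3.51% of all genes, of which 0.0328% and 0% passed the adjusted threshold. SUS against RES in SH had 1 of 10 (Amigo2) with each tool, against 4.88% and 0%. Within EE, SUS against control had 4 of 10 (Cacng5, Pcp4, Bok and Nectin3) with each tool, against 7.9% and 0% of all genes. RES against control in EE had 3 of 10 with each tool, against 7.91% and 0%, and shares its control mice with the former comparison. These were Bok, Iyd and Nectin3 in edgeR and DESeq2, and Map3k15, Bok and Nectin3 in limma. SUS against RES in EE had 0 of 10 with each tool, against 3.52% and 0%.

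Between housings, EE control against SH control had 3 of 10 members (Cacng5, Rgs14 and Iyd) at an unadjusted p under 0.05 with each tool, against 5.02% of all genes, and 0.00547% at the adjusted threshold. EE RES against SH RES had 4 of 10 (Amigo2, Rgs14, Bok and Nectin3) with each tool, against 16%, and 0.273% adjusted, and DESeq2 called 1 of them, Rgs14, at an adjusted p of 0.0273. EE SUS against SH SUS had 1 of 10 (Rgs14) with each tool, against 7.36% and 0.00547%. In the median, the 5 CA3 genes differed between EE and SH by 0.04 and the 5 CA2 genes by -0.08, against 0.00 over all genes. Of 9 tested further CA2 genes Nr3c2, the mineralocorticoid receptor, fell in EE by 0.15 (SE 0.02, adjusted p = 0.000431), and 3 others were lower and 5 higher, none of which passed. Of the 9, 6 had an unadjusted p under 0.05 in edgeR, 3 higher and 3 lower, against 17.6% of all genes.

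Whether the members rise and fall together from mouse to mouse was asked by Pearson's r and Spearman's rho of log2 CPM over the 54 mice, with two-sided permutation tests of 100000 resamples adjusted over the 45 pairs. No batch is given in the labels, so r was also taken within each housing. The CA3 genes without Coch formed 1 block. All 6 of its pairs passed, with r from 0.427 (Iyd and Bok) to 0.848 (Nectin3 and Bok). For Nectin3 and Bok rho was 0.810, both with p = 1e-05, the smallest that these permutations can give (adjusted p = 7.5e-05), and r was 0.841 in SH, 0.857 in EE, 0.814 on deviations from the 6 group means, 0.818 without the 2 mice farthest from the median of Nectin3, and 0.828 without the 6 mice high in Ttr. Cpne4 and Nectin3 had r = 0.773 (rho 0.710, adjusted p = 7.5e-05 for both) and 0.745 without the 2 farthest mice. Cpne4 also moved with Bok (r = 0.685) and with Iyd (r = 0.640), both at the same adjusted p.

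Iyd was the loosest gene of that block. With Nectin3 its r was 0.492 (permutation p = 0.00018, adjusted p = 0.000900), 0.285 within SH and 0.756 within EE. With Bok its r was 0.427 (permutation p = 0.00129, adjusted p = 0.00484), 0.441 within SH and 0.663 within EE. Coch stood outside, with r of -0.232 with Cpne4, -0.163 with Iyd, -0.0682 with Nectin3 and -0.154 with Bok, none past the threshold. The median over all 10 CA3 pairs was 0.459, and over the 6 pairs without Coch 0.662.

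The CA2 genes formed no block. Their 10 pairs had a median r of -0.120 and ran from -0.537 to 0.454. Pcp4 and Cacng5 were the only positive pair past the threshold, with r = 0.454 (permutation p = 0.00056, adjusted p = 0.00229) and rho = 0.407 (adjusted p = 0.0107), 0.310 within SH, 0.517 within EE and 0.345 without the 2 farthest mice. Amigo2 and Rgs14 went in opposite directions, with r = -0.537 (permutation p = 2e-05, adjusted p = 0.000129) and rho = -0.556, and -0.556 in SH, -0.431 in EE and -0.534 without the 2 farthest mice. Amigo2 and Pcp4 had r = -0.348 (permutation p = 0.00931, adjusted p = 0.0299), but rho of -0.278 did not pass (adjusted p = 0.130), and r was -0.146 within SH and -0.242 without the 2 farthest mice, so that relation rests on few mice. Map3k15 passed with no other member.

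Between the fields, 25 pairs had a median r of 0.0423, and 5 passed. Amigo2 went with the CA3 genes Nectin3 (r = 0.506, rho 0.545, adjusted p = 0.000900), Coch (r = 0.483, rho 0.418, adjusted p = 0.000990) and Bok (r = 0.422, rho 0.456, adjusted p = 0.00519) in the permutation test. With the CA3 genes Cpne4 (r = 0.195, adjusted p = 0.359) and Iyd (r = -0.0988, adjusted p = 0.694, -0.409 within SH) Amigo2 did not pass. Within SH and EE the relations that passed were 0.423 and 0.530 for Nectin3, 0.457 and 0.535 for Coch, and 0.238 and 0.482 for Bok. Rgs14 went against Nectin3 (r = -0.687, rho -0.638) and Bok (r = -0.633, rho -0.605), both with p = 1e-05 and an adjusted p of 7.5e-05. Without the 2 mice farthest in the CA3 gene these were -0.592 and -0.604, and within SH and EE they were -0.692 and -0.750 for Nectin3 and -0.553 and -0.647 for Bok. Rgs14, listed as a CA2 gene, was therefore high in mice in which Nectin3 and Bok were low, in both housings.

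**Figure D3:**
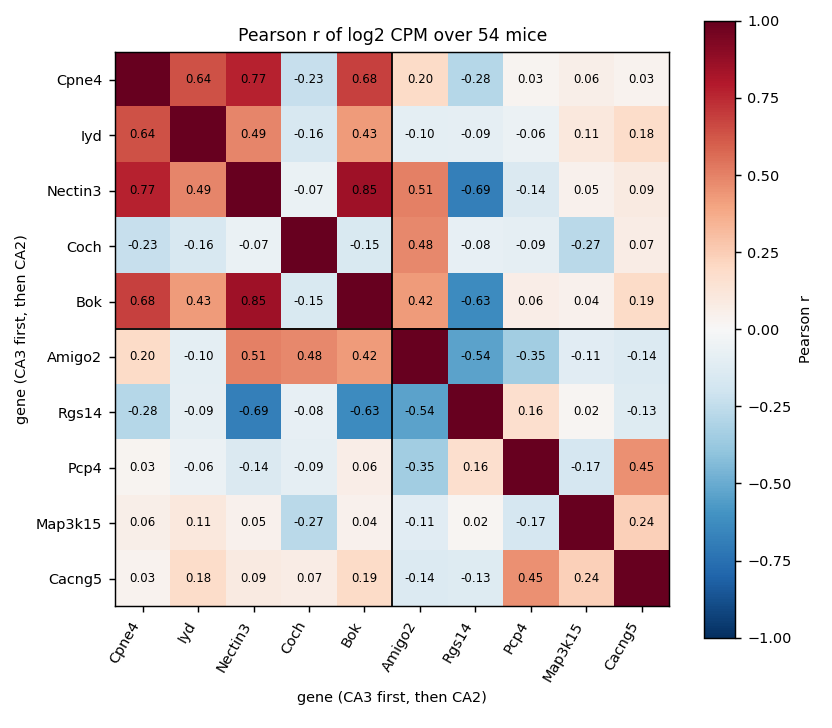
Pearson r of log2 CPM over 54 mice for each pair of genes, CA3 genes first and CA2 genes after the black line, from -1 (blue) to 1 (red). Cpne4, Iyd, Nectin3 and Bok form a red block without Coch, and the CA2 block holds red and blue cells alike.

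Marker lists of 14 cell types or regions were set beside each member, as the mean z-score of log2 CPM over the genes of a list that passed the filter. With the total count and the share of read pairs on genes this gave 160 relations, adjusted together. Nectin3 followed the score of pyramidal cells of all CA fields (Neurod6, Sv2b and Dkk3) with r = 0.886 (rho 0.833) and that of the 8 further CA3 genes with r = 0.855 (rho 0.812), and went against dentate granule cells (r = -0.712) and mossy cells (r = -0.771). Bok did the same, with r of 0.845, 0.759, -0.656 and -0.667 in that order. All of these had a permutation p of 1e-05, and within SH and within EE each kept its sign, the smallest in size being Bok with granule cells within SH (r = -0.551). Both genes also rose with the oligodendrocyte score, Nectin3 with r = 0.701 (rho 0.713) and Bok with r = 0.735 (rho 0.698), each with a permutation p of 1e-05 and the same sign within SH (0.755 and 0.746) and EE (0.671 and 0.686). Both rose with the choroid plexus score (r = 0.518 and 0.431), and without the 6 mice high in Ttr both values were 0.384. The oligodendrocyte score passed with Cpne4 (rho 0.425) and Amigo2 (rho 0.544) as well. Cpne4 followed the pyramidal score with r = 0.629 and Iyd with r = 0.487, which was 0.317 within SH and 0.771 within EE. Cpne4 fell with the CA1 score (r = -0.402, rho -0.422, -0.483 within SH and -0.325 within EE). It rose with the further CA3 genes (r = 0.489), fell with mossy cells (r = -0.457), and fell with granule cells by Pearson alone (r = -0.326). Without the 6 mice high in Ttr the last value was -0.215. Iyd passed by Pearson alone with the further CA3 genes (r = 0.343, 0.00132 within SH) and mossy cells (r = -0.422), as did Nectin3 with GABA interneurons (r = 0.333). In the same order these were 0.216, -0.340 and 0.203 without the 6 mice high in Ttr. Coch followed neither the pyramidal score (r = -0.131) nor the further CA3 genes (r = -0.0177), and its relations to astrocytes (r = 0.368) and GABA interneurons (r = 0.361) passed with Pearson's r but not with Spearman's rho (adjusted p = 0.0676 and 0.0821 in the permutation test).

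Rgs14 had the reverse pattern of Nectin3. It rose with the dentate granule cell score (r = 0.713, rho 0.612) and the mossy cell score (r = 0.539, rho 0.409), and fell with the further CA3 genes (r = -0.741, rho -0.680), the pyramidal score (r = -0.673, rho -0.594) and oligodendrocytes (r = -0.714, rho -0.701), each with an adjusted permutation p under 0.05. It also fell with endothelial cells (r = -0.483, rho -0.490, -0.151 within SH and -0.411 within EE), thalamus (r = -0.393), GABA interneurons (r = -0.390) and choroid plexus (r = -0.357), which passed as well. Within SH and EE the relation to granule cells was 0.635 and 0.773, and without the 2 mice farthest in that score it was 0.620. EE RES 8, with the lowest Rgs14 of all mice at 45.8 CPM, had the highest Nectin3 at 146.8 CPM. Amigo2 rose with the further CA3 genes (r = 0.628), the pyramidal score (r = 0.488) and GABA interneurons (r = 0.590, rho 0.577), and fell with granule cells (r = -0.610) and mossy cells (r = -0.463). Its r with choroid plexus was 0.448, and 0.311 without the 6 mice high in Ttr.

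Pcp4 fell with the GABA interneuron score (r = -0.702, rho -0.665) and the CA1 score (r = -0.574, rho -0.554) and rose with that of thalamus (r = 0.576, rho 0.464). By Pearson alone Pcp4 passed with the further CA3 genes (r = -0.3501), the pyramidal score (r = -0.331), mossy cells (r = 0.3498) and choroid plexus (r = -0.389). Without the 6 mice high in Ttr these were -0.134, -0.110, 0.137 and 0.0889, so they rest on those mice. It also fell with the total count (r = -0.467, rho -0.374), and did so within SH (-0.451) and EE (-0.471). The share of read pairs on genes passed with Iyd (r = 0.348, rho 0.387), by rank alone with Cpne4 (rho 0.382) and Bok (rho 0.349), and by Pearson alone with Amigo2 (r = 0.327). Amigo2 also passed with the total count (r = 0.382), but not by rank (rho 0.214), and r was 0.167 without the 2 farthest mice and 0.157 without the 6 mice high in Ttr. The part of depth and of this share in the differences and in the co-variation of these genes was not tested. Cacng5 rose with the thalamus score (r = 0.758, rho 0.735, permutation p = 1e-05), in SH (0.642) and in EE (0.859) and without the 2 farthest mice (0.705), and passed with microglia by Pearson alone (r = -0.345). Map3k15 passed with 1 measure only, the total count (r = 0.344, adjusted p = 0.0343 in the permutation test). By rank it did not pass (rho 0.221), and r was 0.193 without the 2 farthest mice and 0.126 without the 6 mice high in Ttr. The score of the further CA2 genes passed with none of the 10 members, the highest r being 0.294 with Amigo2 (adjusted p = 0.0782). That score varied little, with a group SD of 0.184 to 0.365, against 0.514 to 0.979 for the further CA3 score. Whether its 9 genes move together was not tested, so the lack of relations does not tell about CA2 tissue. The part of other tissue in the punches in these relations was not tested.

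**Figure D4:**
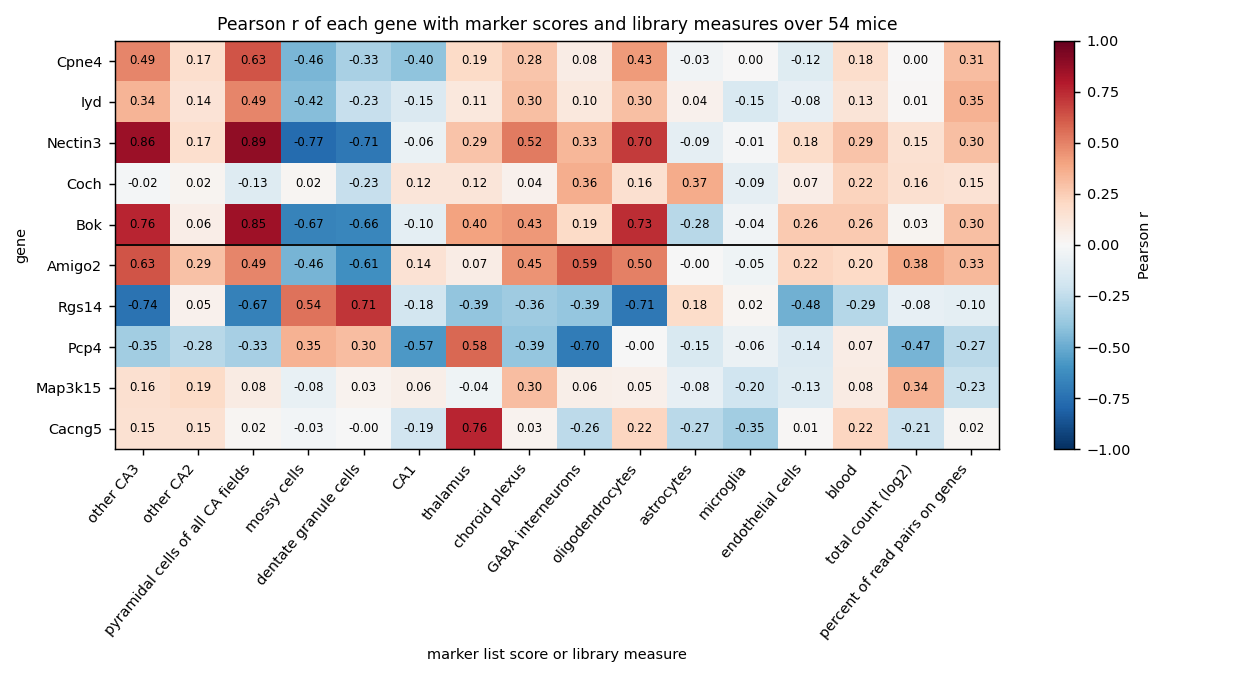
Pearson r over 54 mice of each gene (rows) with 14 marker list scores, the log2 total count and the share of read pairs on genes (columns), from -1 (blue) to 1 (red). Nectin3 and Bok are red for CA3, pyramidal and oligodendrocyte scores and blue for granule and mossy cells, Rgs14 is the reverse, and Cacng5 is red for thalamus.

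**Figure D5:**
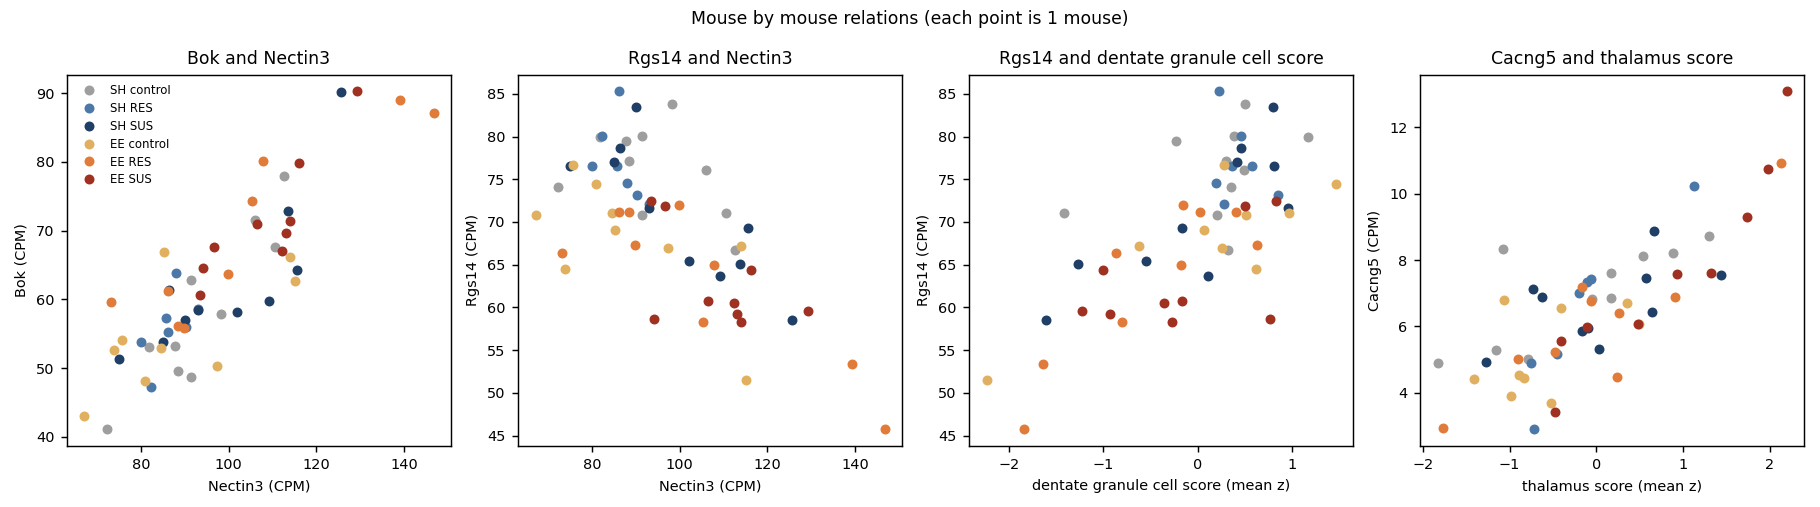
Each point is 1 of 54 mice, coloured by group: Bok against Nectin3 and Rgs14 against Nectin3 in CPM, Rgs14 (CPM) against the dentate granule cell score and Cacng5 (CPM) against the thalamus score (both mean z-scores). Bok rises with Nectin3 (r = 0.848), Rgs14 falls with Nectin3 (r = -0.687) and rises with granule cells (r = 0.713), and Cacng5 rises with thalamus (r = 0.758), r being taken on log2 CPM.

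The genes most alike to each member were taken from the other 18282 tested genes by Pearson's r over the 54 mice, as a description. Nectin3 was closest to Fstl5 (r = 0.922), Neurod6 (0.919) and Lpl (0.916), and Bok was the 33rd in that order. Bok was closest to Rem2 (0.901), Hpca (0.899) and Epdr1 (0.899), and Cpne4 to Dmxl2 (0.815), Nrn1 (0.814) and Gpr158 (0.804). For Iyd the nearest were Ppp1r21 (0.669), Fam19a1 (0.669) and Pcsk2 (0.655), with Cpne4 next. Coch was closest to Vgll3 (0.800), Rnd2 (0.723) and Htr2a (0.684).

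Of the CA2 genes, Rgs14 was closest to Sec24d (0.876), Syt16 (0.868) and Mcm6 (0.838). Amigo2 was closest to Plagl1 (0.805), a gene of the further CA3 list, and then to Popdc3 (0.791) and Nkd2 (0.791). Pcp4 was closest to Vav3 (0.770), Gabrd (0.742) and Adarb2 (0.729), and Cacng5 to Clmn (0.810), Chrna4 (0.804) and Sh3d19 (0.801). Map3k15 had no close neighbour, with Ermard (0.529), Inf2 (0.526) and Rgs11 (0.525) at the head. No member was among the 3 genes nearest to another member.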

How the data were processed

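Per the submitters' processing notes, reads were aligned with STAR to mm10 (GRCm38), with Picard also named. The deposited values are raw read counts per Ensembl gene in the layout of STAR gene counts, with 1 file per library and no normalization. The reverse-strand column was used, since forward-strand counts were 3.51% to 4.13% of the strand-assigned ones. Of all read pairs, 45.8% to 52.9% fell on genes, and unmapped, multimapping, unassigned and ambiguous reads entered neither library sizes nor tests. EE control mouse 9 had 2 runs, whose counts were added, so that 55 libraries stand for 54 mice. Intervals and p-values measure the spread between mice of this series, and not that between cages, which the labels do not name.

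Counts were scaled by TMM, filtered with filterByExpr and fitted over the 6 groups with the quasi-likelihood test of edgeR 4.0.16 in R 4.3.3, which was checked on simulated data. The study's methods name limma-voom, and limma 3.58.1 and DESeq2 1.42.0 were run as alternatives. Correlations used log2 CPM with a prior count of 2. Gene names and positions came from GENCODE M21 on GRCm38 (44671 of 45318 identifiers matched) and promoters from RefSeq (8 of 10 members matched, without Rgs14 and Map3k15). The rule for named genes took the 10 members, the genes of 14 marker lists and, for each member, the 3 genes with the highest r. Members and lists were chosen with earlier results of these data known. The value of 1 listed marker gene is not reported here.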

Additional observations from a re-analysis of the deposited data

Results flagged for a closer look

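Within a group, a single mouse stood apart from the rest for 4 of the 10 genes, by a gap to its nearest neighbour that was large for the range of the group (Dixon's test at 95%). Cpne4 in SH RES mouse 5 was 162 CPM, and the next highest of the 7 mice had 145 CPM. Iyd in SH control mouse 10 was 7.61 CPM against 5.87 for the next of 10 mice, and Iyd in EE SUS mouse 1 was 7.07 CPM against 5.05 for the next of 9. Coch in SH SUS mouse 6 was 13.4 CPM, the highest of all 54 mice, against 7.56 for the next of 10. Rgs14 in EE control mouse 5 was 51.5 CPM against 64.5 for the next lowest of 9. These are 5 values in 60 tests of a gene in a group, and chance flags about 1 in 20 groups.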

How the results depend on the processing

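The lower Rgs14 in EE passed the threshold under all 12 alternatives and without each of the 54 mice in turn. Leaving out these single mice gave 1 member at the least and 1 at the most for EE against SH (adjusted p for Rgs14 from 0.000896 to 0.00513). The call over all 6 groups was less stable. DESeq2 called 2 members (Bok and Rgs14), whereas 0 were called with the replicate block (Rgs14 adjusted p = 0.0517), with the dentate granule cell score (0.0671) or without the 6 mice high in Ttr (0.0506). For that call, leaving out single mice gave 0 to 1 members (Rgs14 adjusted p from 0.0152 to 0.0677), with 0 in 15 of 54, namely without SH control 1, 5, 7 or 8, SH RES 1, 2, 3, 6 or 7, EE RES 3, or EE SUS 1, 3, 4, 6 or 8. For EE against SH, 2 members (Iyd and Rgs14) were called without the 6 mice high in Ttr. For EE RES against SH RES, 1 member (Rgs14) was called with DESeq2, with the replicate block (adjusted p = 0.0446) and with thalamus and choroid plexus scores (0.0409), and 0 to 1 without single mice, with 1 without SH control 3, EE control 5, EE RES 7 or EE RES 9. The difference of Cacng5 between EE SUS and EE control went from 0.56 to near 0 with thalamus and choroid plexus scores (-0.0241, SE 0.14). The cause of these changes was not tested. Over all genes, calls in the test over 6 groups went from 64 to 183 with DESeq2, 40 with limma and 28 with the granule cell score. For EE against SH they went from 442 to 680 with DESeq2, 242 without the low-count filter and 182 with the granule cell score. For EE RES against SH RES they went from 50 to 245 with DESeq2, 228 with the replicate block, 92 with thalamus and choroid plexus scores, 24 without the filter, 14 without the mice high in Ttr, 3 with the CA1 score and 2 with the granule cell score. Other comparisons had few calls: 6 to 13 for defeat (8 in edgeR), 1 to 8 for SH SUS against SH control (6), 1 to 3 for EE control against SH control (1) and 0 to 3 for EE SUS against SH SUS (1).

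The labels do not say whether the replicate number marks a shared litter, batch or day, and this was not settled here. Deviations from the group means had a median r of 0.0262 over 126 pairs with the same number, 32 of them over 0.1. Over 1086 other pairs the median was -0.00397, with 175 over 0.1. With the number as a block, calls over all genes for EE against SH went from 442 to 581. Median r without single mice was 0.400 to 0.502 for CA3 pairs, -0.137 to -0.0727 for CA2 pairs and -0.00935 to 0.0606 between them. The granule cell score and the set without mice high in Ttr were added after seeing the data. Depth limits the rarest genes most, with lowest counts per mouse of 16 for Map3k15, 34 for Coch, 62 for Cacng5 and 64 for Iyd.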

Other observations

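Another 10 marker lists were not described above for EE against SH averaged over control, RES and SUS. They were further CA3, pyramidal cells of all CA fields, mossy cells, CA1, thalamus, choroid plexus, GABA interneurons, astrocytes, microglia and blood. Of their 56 genes, 0 passed the adjusted threshold between EE and SH with edgeR, limma or DESeq2. An unadjusted p under 0.05 was reached by 9, 8 and 9 of them, where 17.6% of all genes did so with edgeR. These counts are thus near the background. Between defeated and control mice the members did not pass, but all 5 blood genes rose with each of the 3 tools: Hbb-bt by 1.30, Alas2, which makes the first intermediate of haem in developing red cells, by 1.13, Hbb-bs by 1.09, Hba-a1 by 1.05 and Hba-a2 by 1.04 on the log2 scale in edgeR (adjusted p from 4.08e-05 to 0.00104). Over all genes, 8 of 18283 (0.0438%) passed in that comparison with edgeR, 6 with limma and 13 with DESeq2. None of the 10 CA3 and CA2 genes was related to the blood score past the adjusted threshold over all mice, the highest r being 0.289 for Nectin3 and the lowest -0.288 for Rgs14. Within EE, r was 0.530 for Nectin3, 0.509 for Bok, 0.436 for Cpne4, 0.433 for Iyd and -0.495 for Rgs14. Within SH these were 0.0607, 0.0900, -0.0813, -0.254 and -0.314. The values within a housing were not tested.

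Calb2, the calretinin of mossy cells, ran from 51.3 to 202 CPM over the 54 mice with a median of 134, and the summed mossy cell list was lowest in SH control 10 at 88.5 CPM and highest in SH RES 5 at 257 CPM. SH control 10 also had the highest Iyd of all mice and the highest Cpne4, Nectin3 and Bok of its group.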
